A study of Sus scrofa with 36 samples.

Results

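The adrenal glands of 6 Large White pigs were compared with those of 6 Creole pigs, all heat-stressed (HS) castrated males, out of 36 pigs in the whole series. Large White is a commercial breed and Creole a local Caribbean breed. The comparison answers which genes differ between the breeds when both are in the heat. The growth protocol gives an exposure to 32 °C for 5 days and the study's methods 4 or 5 days, so that the pigs differed in length of exposure and day of slaughter, whereas the array labels give 30 °C for the same pigs. The other groups of 6 pigs, used here only to place these values, were Large White and Creole pigs kept at 24 °C (thermoneutral, TN) and Large White x Creole pigs (F1) under heat and at 24 °C. The breeds were penned apart, and each breed came from 3 sets of 4 littermates, so that pigs of a group share litters. Neither pens nor litters are given with the arrays, so breed cannot be told apart from pen, litter and parents, and a p-value measures the spread between these pigs only. RNA came from powdered whole glands, so that fewer cells of a type and less RNA per cell cannot be told apart.

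The adrenal gland joins 2 endocrine tissues. The cortex takes up cholesterol and turns it into cortisol and aldosterone under the control of ACTH and angiotensin, and the medulla is made of chromaffin cells that store adrenaline and noradrenaline in granules. Fat surrounds the gland and lies within its capsule.

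Values are the authors' quantile normalised log2 intensities of 45348 probes on a single-colour array, with 1 array per pig. A difference is Large White minus Creole on this log2 scale, so that 1 stands for a doubling of intensity, and a probe was called when limma's adjusted p (Benjamini-Hochberg over all probes) was under 0.05. A gene with several probes is given by its brightest probe, and levels of different probes are not compared. Gene names were found for 23663 probes, which stand for 11158 genes, and coordinates are those of RefSeq genes on Sscrofa11.1, since the files place no probe on the genome. Between 43585 and 47657 of the 60305 probes per array were well above background, and pairs of the 12 arrays correlated between 0.983 and 0.994.

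2 pigs, each apart from its group in the levels given here, are followed through the results. They were not the lowest in median correlation with their own group. That was Creole pig 1 (0.9868, against 0.9894 for Creole pig 6 and 0.9897 for Large White pig 5). Large White pig 5 had the lowest level of chromaffin cell markers (mean log2 intensity of 7 genes 13.61, against 14.20 to 14.45 in the other 5) and the highest level of interferon-stimulated genes (11.02 over 41 genes, against 9.50 to 10.20). Creole pig 6 had a level of HSPH1, a heat shock protein of the HSP110 family, of 12.72, against 11.68 to 11.85 in the other 5 Creole HS pigs and 11.74 to 13.19 in Creole pigs at 24 °C.

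Probes that carry results resting on 1 stretch of sequence are shown first. All are 60 bases long, written 5′ to 3′ from the deposited array files. The probe of MLKL, a pseudokinase that executes necroptosis (chr6:12923846-12951176), and a probe without a gene name differ at 1 base, in capitals (A18C, counted from 1 at the 5′ end with the MLKL base first), and both were far lower in Large White.
MLKL probe O4236: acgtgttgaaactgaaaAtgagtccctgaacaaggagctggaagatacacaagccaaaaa
unnamed probe A_72_P010366: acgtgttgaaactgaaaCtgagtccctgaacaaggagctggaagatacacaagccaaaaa
3 of the 6 probes of SELENOF, a selenoprotein of the endoplasmic reticulum (chr4:129258943-129287727), share a run of 20 bases, in capitals, and only the first of them differed between the breeds.
SELENOF probe CUST_56_PI427286967: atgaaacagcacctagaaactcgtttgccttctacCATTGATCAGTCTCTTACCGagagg
SELENOF probe A_72_P562884: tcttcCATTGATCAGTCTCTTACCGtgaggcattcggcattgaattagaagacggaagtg
SELENOF probe A_72_P629475: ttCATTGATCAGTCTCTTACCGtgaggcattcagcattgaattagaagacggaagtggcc
2 probes of RBM38, an RNA-binding protein (chr17:57783156-57802495), were called in opposite directions. They share no run of 10 bases, so no letter is capitalised.
RBM38 probe A_72_P442453, lower in Large White: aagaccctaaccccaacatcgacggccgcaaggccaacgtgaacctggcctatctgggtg
RBM38 probe O7535, higher in Large White: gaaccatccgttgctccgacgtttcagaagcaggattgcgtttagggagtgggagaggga

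Under heat, 630 probes differed between Large White and Creole pigs (1.39% of those tested, limma with Benjamini-Hochberg adjustment), of which 260 were higher (0.573%) and 370 lower (0.816%) in Large White. The called differences had a median of 0.67 in size (log2), and 176 probes differed by more than 1, 61 of them higher and 115 lower in Large White. The levels of the 2 breeds did not overlap at 427 of the 630 probes, whereas they did not overlap at 1.59% of all probes. A gene name was found for 352 called probes, which stand for 224 genes, and the brightest probe was called for 161 genes (1.44% of the genes tested), 62 higher and 99 lower. Without Large White pig 5 the counts were 470 higher and 343 lower, with 513 of the 630 calls kept, and without Creole pig 6 they were 241 and 317. The lowest counts were 141 and 203, without Large White pig 3.

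The arrays lay on 5 slides, 4 of which held both breeds under heat. Of the 630 called probes, between 621 and 629 kept their direction within each of these 4 slides, which is a description only, since the probes were called on these same arrays. A fit that took the slide as a fixed block called 291 probes higher and 306 lower, with 366 of the 630 calls kept. With the slide as a random block 359 were higher and 448 lower, and all 630 calls were kept. A call given as lost with the slide as a block was lost in the fixed fit and kept in the random one.

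The genes furthest apart were of many kinds. They were chosen among called genes at which the breeds did not overlap, so a lack of overlap here is no finding. PDLIM3 overlapped and is named because all of its 10 probes were called alike. NPSR1, with both of its 2 probes called, differed by -3.115 (adjusted p = 0.0258 from limma), but the breeds overlapped and it fell outside this choice. CRABP1, a binding protein of retinoic acid (chr7:47602316-47608865), lay between 7.16 and 8.002 (median 7.59) in Large White and between 8.75 and 13.44 (median 11.14) in Creole pigs, a difference of -3.42 (SE 0.56, adjusted p = 0.011 from limma). No Large White pig reached the lowest Creole pig, and the Creole pigs were spread far wider. PDLIM3, a muscle protein that binds actin filaments (chr15:46516178-46546658), had medians of 9.48 in Large White and 13.45 in Creole pigs, a difference of -3.36 (SE 0.60, adjusted p = 0.0163). Here the breeds overlapped through Creole pig 1 alone, which stood at 9.47 among the Large White pigs (9.28 to 9.77) while the other 5 Creole pigs stood between 13.08 and 13.90.

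MGST2, a microsomal glutathione S-transferase (chr8:87318180-87394563), ranged from 9.29 to 11.08 (median 10.09) in Large White and from 12.09 to 12.87 (median 12.69) in Creole pigs, a difference of -2.49 (SE 0.24, adjusted p = 0.000133). CES1 and CES3 are carboxylesterases, which split esters of drugs and lipids. CES1 (chr6:29884249-29913330) lay between 6.20 and 7.15 in Large White and between 7.63 and 9.82 in Creole pigs, a difference of -2.44 (SE 0.33, adjusted p = 0.00299). Its 8 probes, all lower in Large White and 5 of them called, ranged from -2.44 to -0.10, and the mean of its probes differed by -1.19. The CES3 probe (chr6:27627712-27637827) differed by -2.48 (SE 0.36, adjusted p = 0.0052), and whether the probes of one carboxylesterase also bind the transcript of another was not tested. The breeds did not overlap at any of these 3 genes.

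MLKL was the named gene with the smallest p-value. Its levels lay between 5.73 and 6.53 (median 6.07) in Large White and between 7.86 and 8.13 (median 8.01) in Creole pigs, a difference of -1.92 (SE 0.11, adjusted p = 3.42e-06). The unnamed probe with 1 other base differed by -2.16 (SE 0.15, adjusted p = 1.08e-05). Both breeds were tight, and a gap of more than 1 separated them. MYL6B, a myosin light chain (chr5:21554351-21558995), differed by -1.89 (8.99 to 9.64 in Large White, 10.95 to 11.60 in Creole pigs, SE 0.13, adjusted p = 1.08e-05).

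The other genes of this kind lower in Large White were SLC30A3, a zinc transporter of secretory vesicles (difference -1.85, adjusted p = 0.0234), USF1, a transcription factor that binds E-boxes (-1.78, adjusted p = 3.21e-05), ADIPOQ, the fat cell hormone adiponectin (-1.73, adjusted p = 9.18e-05), and ABCC8, the sulfonylurea receptor of potassium channels (-1.55, adjusted p = 0.0116), all from limma. USF1 (chr4:89395133-89401048) lay between 8.44 and 8.82 in Large White and between 9.998 and 10.88 in Creole pigs. The breeds did not overlap at any of these genes, and SLC30A3 lost its call without Large White pig 2 or 3 or Creole pig 2 or 3.

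Among the genes called higher in Large White with no overlap between the breeds, OAZ3, an antizyme of polyamine synthesis best known from the testis (chr4:97439993-97448493), differed most at its brightest probe. It lay between 8.31 and 10.98 (median 10.51) in Large White and between 7.63 and 8.18 (median 7.81) in Creole pigs, a difference of 2.37 (SE 0.36, adjusted p = 0.00642). Large White pig 5 alone was near the Creole pigs, and the other 5 stood at 10.40 or above. KIT, the stem cell factor receptor whose locus carries the dominant white coat of Large White pigs (chr8:41402334-41492306), lay between 11.61 and 12.50 (median 12.21) in Large White and between 10.04 and 10.71 (median 10.48) in Creole pigs, a difference of 1.74 (SE 0.15, adjusted p = 9.18e-05).

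The other genes of largest difference higher in Large White were EFHD1, a calcium-binding protein of mitochondria (1.67, adjusted p = 0.0297), PNPLA4, a lipase that also acts on retinol esters (1.56, adjusted p = 0.0109), DCPS, the scavenger mRNA decapping enzyme (1.47, adjusted p = 0.00918), SYT13, a synaptotagmin (1.37, adjusted p = 0.0105), LMO1, a LIM-domain regulator of transcription (1.26, adjusted p = 0.0141), CATSPERB, a subunit of a sperm calcium channel (1.196, adjusted p = 0.00618), LPL, lipoprotein lipase (1.04, adjusted p = 0.0105), and CNTN3, a contactin of cell adhesion (1.00, adjusted p = 0.00349), all from limma. EFHD1 lost its call without any of 7 pigs and LMO1 with the slide as a block. At most genes in the plot of every pig the separation follows from the choice of genes, which required it.

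**Figure D1:**
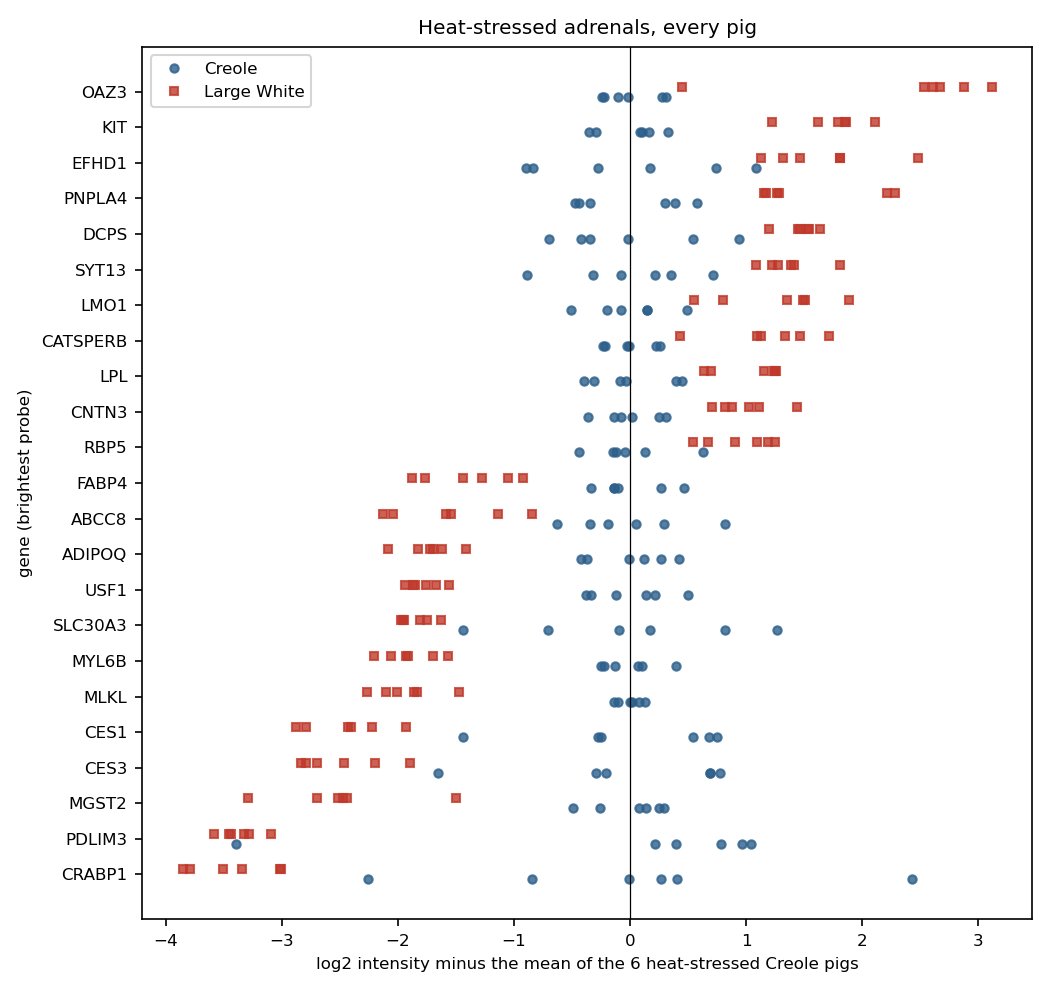
Each row is a gene by its brightest probe, each blue circle a Creole and each red square a Large White HS pig, and the x axis is the log2 intensity minus the mean of the 6 Creole pigs. Genes were chosen for a lack of overlap or for probes that were all called alike. The breeds overlap at PDLIM3, where Creole pig 1 lies among the Large White pigs, and at RBP5. OAZ3 of Large White pig 5 lies near the Creole pigs.

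Whether several probes of a gene agree was asked of the 5531 genes with 2 or more probes. At least 1 probe was called in 145 of them, and in 112 of these (77.2%) all probes of the gene pointed in 1 direction, against 58.7% of the genes with no call. All probes were called, in 1 direction, for 30 genes. Because probes of a gene often overlap, the probes were also compared pair by pair. Each called probe was set against every other probe of its gene, so a pair with both probes called was counted from each side. Where the other probe shared no run of 15 bases with the called one (1219 such comparisons in 134 genes), 94.0% had the same direction and 56.6% were called too. The median of its difference was 0.846 of that of the called probe. Pairs of overlapping probes had the same direction in 96.9% of 163 cases, and pairs from genes without a call in 72.9%. The 72.9% counts each pair once, overlapping probes included, so it is not a like baseline. Genes with many probes, and pairs with both probes called, weigh most in the shares of called genes. Counted once per gene, by the strongest probe and the median of its non-overlapping partners, 74 of 134 genes had partners at more than 0.5 of the strongest difference, 25 between 0.2 and 0.5, 29 between -0.2 and 0.2, and 6 pointed the other way. The strongest probe was the one with the smallest p, a choice that favours large differences, so a ratio under 1 is no finding.

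The genes with 3 or more probes that were all called and agreed were led by PDLIM3 (10 probes, -3.44 to -1.80), CRABP1 (3 probes, -3.42 to -2.30), USF1 (5 probes, -1.78 to -1.01), ADIPOQ (10 probes, -1.74 to -0.66) and FABP4, the fatty acid-binding protein of fat cells (8 probes, -1.53 to -0.57). In the other direction there were 4 such genes, OAZ3 (3 probes, 1.61 to 2.42), KIT (5 probes, 1.34 to 1.79), CATSPERB (3 probes, 1.115 to 1.196) and RBP5, a retinol-binding protein (3 probes, 0.75 to 0.94). Some of these probes are the same sequence: both of the brightest KIT probes are identical, a pair of probes each of OAZ3, CRABP1 and USF1 are also identical, and such pairs are not separate evidence. The KIT probes still read 3 separate stretches, at which the difference was 1.74, 1.79 and 1.40.

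Other genes rested on 1 stretch. Of the 6 SELENOF probes, the one named CUST_56_PI427286967 lay between 6.76 and 8.21 (median 8.04) in Large White and between 11.23 and 12.51 (median 11.76) in Creole pigs, a difference of -4.13 (SE 0.28, adjusted p = 1.08e-05), which was the largest of any probe with a gene name. The other 5 probes differed by -0.16 to 0.13 and none was called, including the 2 that share 20 bases with it. SELENOF was singled out after its values were seen. DCPS had a second probe at -0.31, against 1.47 at its brightest, SLC30A3 one at -0.24 against -1.85, and CES3 one at -0.34 against -2.48. For these genes the level of the whole transcript is not settled by the probes.

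RBM38 was the only gene with probes called in both directions. Probe A_72_P442453 lay between 6.38 and 6.83 in Large White and between 6.84 and 7.64 in Creole pigs, a difference of -0.74 (SE 0.14, adjusted p = 0.0208 from limma). Probe O7535 lay between 6.58 and 7.35 in Large White and between 5.62 and 6.50 in Creole pigs, a difference of 1.06 (SE 0.17, adjusted p = 0.00835). The breeds did not overlap at either. The other 2 probes, the brightest of them among them, differed by 0.06 and -0.02 and were not called.

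**Figure D2:**
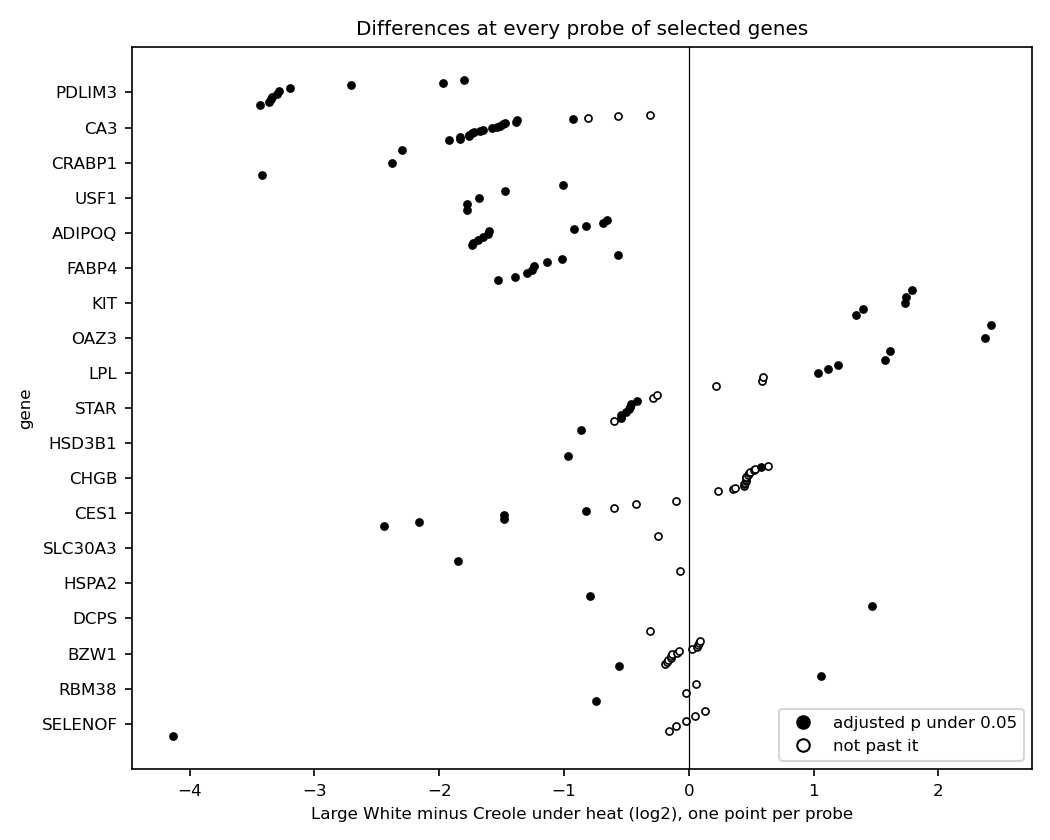
Each point is 1 probe of the gene named on the y axis, the x axis is the difference between Large White and Creole pigs under heat in log2 units, and filled points passed the adjusted p of 0.05. The 10 probes of PDLIM3 and of ADIPOQ all lie to the left, whereas 1 probe of SELENOF lies at -4.13 with the other 5 near 0, and RBM38 has filled points on both sides. The genes were chosen after their values were seen. CA3, a carbonic anhydrase of muscle and fat, had 17 of its 20 probes called and all of them lower in Large White.

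The functions of the gland were read from lists of genes, given here as the number of genes called by their brightest probe and the median difference, beside 1.44% of genes called and a median of -0.01 over all 11158 genes. Among steroidogenic genes, 23 had a probe, of which 2 were lower in Large White, none was higher and the median was -0.09. HSD3B1 turns pregnenolone into progesterone (chr4:101565229-101574110). It lay between 15.49 and 15.97 (median 15.59) in Large White and between 16.20 and 17.06 (median 16.45) in Creole pigs, a difference of -0.87 (SE 0.13, adjusted p = 0.00614 from limma). The breeds did not overlap, its second probe differed by -0.97, and the highest Creole value was that of pig 6, with the other 5 at or below 16.49. STAR brings cholesterol into mitochondria (chr15:48377597-48385398). It lay between 17.36 and 17.71 in Large White and between 17.77 and 18.20 in Creole pigs, a difference of -0.46 (SE 0.09, adjusted p = 0.0253), and all 10 of its probes were lower, 7 of them called. STAR lost its call with the slide as a block, with 2 other normalisations, and without Large White pig 1, 2, 3 or 4 or Creole pig 3. The cytochromes CYP11A1, CYP17A1 and CYP21A2, named after their values were seen, differed by -0.07, 0.06 and -0.29 and were not called.

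Of 33 genes of cholesterol synthesis, uptake and storage, 2 were lower, none was higher and the median was -0.21, with 25 genes on the lower side. SOAT1, which esterifies cholesterol for storage, differed by -0.62 (SE 0.14, adjusted p = 0.0498 from limma). The breeds overlapped at SOAT1, and its call was lost in 14 of 24 alternatives, the slide as a block among them. Within the 4 slides the median of this list was 0.21, -0.38, -0.36 and -0.04, and with the slide as a block it was -0.20. The markers of cortex cells showed 1 of 8 genes called, which was STAR, with a median of -0.07. Their mean log2 level lay between 15.89 and 16.05 in Large White and between 16.03 and 16.15 in Creole pigs, and all 8 probes were well above background on all 12 arrays. The part of this difference in the steroid and cholesterol genes was not tested.

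Upstream of these enzymes 1 gene was called. Among 21 genes of the ACTH receptor and cAMP signalling, PRKACB, a catalytic subunit of protein kinase A, was higher in Large White (0.58, SE 0.11, adjusted p = 0.0213), no other gene was called and the median was 0.00. It was not called with the slide as a block or without Large White pig 3. Of 21 genes of the angiotensin receptor and aldosterone ion channels none was called, and the smallest p was that of the calcium channel CACNA1D (0.25, adjusted p = 0.237). Of 23 glucocorticoid receptors, enzymes and targets none was called at its brightest probe (glutamine synthetase, GLUL, had 2 of 7 called at dimmer probes, -0.47 and -0.39), and the smallest p was that of the metallothionein MT1A, whose brightest probe differed by 2.46 (SE 0.62, adjusted p = 0.073) with 11.98 to 13.33 in Large White and 8.67 to 12.98 in Creole pigs. Its other 2 probes differed by 2.41 and -1.18, so the probes of MT1A did not agree in direction.

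On the side of the medulla, 28 genes of catecholamine synthesis and chromaffin granules had a median of 0.20, with 21 genes higher in Large White, 1 of them called. SCG2, the granule protein secretogranin II (chr15:125420773-125426303), lay between 12.86 and 14.04 (median 13.62) in Large White and between 12.51 and 13.16 (median 12.62) in Creole pigs, a difference of 0.83 (SE 0.19, adjusted p = 0.0482). All 7 markers of chromaffin cells were on the higher side, with a median of 0.21 and none called, and their mean log2 level lay between 13.61 and 14.45 in Large White and between 13.80 and 14.22 in Creole pigs. The low end of Large White was pig 5. At 24 °C, in other pigs, 7 of the 28 genes were called (3.08% of all genes were) and the median was 0.31. Under heat without Large White pig 5, 7 of the 28 genes were called (1.96% of all genes were), all 7 higher in Large White: SCG2 (0.97), SCG3 (0.89), the transcription factors HAND2 (0.73) and GATA3 (0.68), CHGB, or chromogranin B (0.59), the nicotinic receptor subunit CHRNA3 (0.48) and PCSK1N (0.46). The median was then 0.34. This pig was singled out on chromaffin genes, so leaving it out raises the Large White mean and narrows its spread at these genes by construction, and the count without it is a description and no test of the list. With all 12 pigs the brightest of the 17 CHGB probes differed by 0.46 (adjusted p = 0.172), all 17 were on the higher side and 1 was called. In the other direction MAOA, a gene of the same list, had 1 of 5 probes called, a dimmer one at -0.49. Within the 4 slides the median of the list was 0.46, 0.14, 0.18 and 0.18. SCG2 lost its call in 12 of 24 alternatives, and with the slide as a block none of the 28 genes was called. The part of the chromaffin marker level in these values was not tested.

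Of 54 heat shock proteins and co-chaperones, 2 were lower and 1 higher, with a median of -0.06. HSPA4, with 1 probe, is a member of the HSP110 class that drives the HSP70 cycle (chr2:135345724-135391112). It lay between 8.66 and 8.98 in Large White and between 9.45 and 9.91 in Creole pigs, a difference of -0.77 (SE 0.08, adjusted p = 0.000459). HSPA2, a testis-rich HSP70 (chr7:88607140-88609947), differed by -0.79 (9.78 to 10.13 against 10.41 to 11.10, SE 0.12, adjusted p = 0.00831), but its second probe differed by -0.07 and the mean of both probes was not called. DNAJC7, a co-chaperone of HSP70 and HSP90, was higher in Large White by 0.29 (SE 0.06, adjusted p = 0.0314), a call lost in 12 of 24 alternatives. HSPA8 and HSPH1, named after their values were seen, differed by 0.00 and 0.03. In the folding machinery of the endoplasmic reticulum, 1 of 24 genes was called. This was ATF6, a sensor of unfolded proteins, lower by 0.47 at its brightest probe (SE 0.10, adjusted p = 0.0445), whose other 2 probes differed by 0.03 and -0.06, and the call was lost in 13 of 24 alternatives.

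Of 43 genes of antioxidant and glutathione defence, 2 were called, both lower in Large White, and the median was -0.07. Beside MGST2, PRDX1, a peroxiredoxin that reduces hydrogen peroxide, differed by -0.45 at both of its probes (adjusted p = 0.0293 at the brightest), and lost its call in 8 of 24 alternatives. Of 33 xenobiotic and lipid oxidising enzymes 2 were lower, CES1 and CYP3A46, a drug-oxidising cytochrome P450 (chr3:6677911-6709855). CYP3A46 lay between 6.03 and 6.55 in Large White and between 6.82 and 7.87 in Creole pigs, a difference of -1.17 (SE 0.15, adjusted p = 0.00278). Its other 2 probes differed by -0.53 and -0.52 and were not called, and the mean of its probes differed by -0.74. Of 42 genes of glycolysis and the citric acid cycle, SUCLG2, a subunit of succinyl-CoA ligase, was lower (-0.46, SE 0.10, adjusted p = 0.0449, lost in 12 of 24 alternatives) and the median was -0.06. None of 69 genes of oxidative phosphorylation was called (median -0.05, smallest p for ATP5J, 0.35, adjusted p = 0.178).

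Of 13 adipocyte markers, 3 were lower in Large White, 1 was higher and the median was -0.36, with 11 genes on the lower side. ADIPOQ (chr13:124633906-124646237) lay between 7.53 and 8.20 (median 7.91) in Large White and between 9.20 and 10.03 (median 9.67) in Creole pigs, a difference of -1.73 (SE 0.15). FABP4 (chr4:55096400-55101209) lay between 9.77 and 10.72 in Large White and between 11.32 and 12.12 in Creole pigs, a difference of -1.39 (SE 0.18, adjusted p = 0.0023). At its dimmest probe no Large White array was well above background, and the Creole level was at least 1.3-fold higher. PLIN1, which coats lipid droplets, differed by -0.86 (SE 0.11, adjusted p = 0.00183), and the breeds did not overlap at any of these genes. LPL, which also serves muscle and other tissues, went the other way (10.70 to 11.32 against 9.66 to 10.50), and 4 of its 7 probes were called. The mean log2 level of the 13 markers lay between 9.90 and 10.33 in Large White and between 10.27 and 10.80 in Creole pigs, with all 13 probes well above background on all 12 arrays. Within the 4 slides the median was 0.02, -0.77, -0.49 and -0.02, and with the slide as a block it was -0.32 with the same number of 4 calls. The amount of fat taken with each gland is not given with the arrays, and its part in these values was not tested.

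Of other cell types, S100A12, a calcium-binding protein of neutrophils and monocytes (chr4:96225691-96227030), was the only one of 16 myeloid markers called (9.49 to 10.83 in Large White, 11.05 to 11.90 in Creole pigs, difference -1.18, SE 0.24, adjusted p = 0.03), and the median of the list was 0.08. Its call was lost in 6 of 24 alternatives, the slide as a block among them. No marker was called at its brightest probe for T, B and NK cells (18 genes, median 0.09, CD3D 0.32), fibroblasts and collagens (20 genes, median -0.26, COL6A1 -0.53 with adjusted p = 0.0676), endothelium (11 genes, median -0.06, PLVAP 0.31), smooth and skeletal muscle (13 genes, median 0.08, MYH7 0.82), glia (10 genes, median -0.03, CDH19 0.28), or red blood cells and platelets (9 genes, median 0.04, PPBP -0.23), where the gene named is the one with the smallest p. For fibroblasts and collagens 16 of 20 genes were on the lower side in Large White, and COL14A1, a collagen, had 1 of 12 probes called, a dimmer one at -0.43.

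In the remaining lists KIT was the single gene called, 1 of 19 loci of coat colour, size and muscle selected in commercial pigs (median -0.02). No gene was called at its brightest probe among 30 swine leukocyte antigens and genes of antigen presentation (median -0.02, ERAP1 -0.33), 41 interferon-stimulated genes (median 0.04, XAF1 1.32 with adjusted p = 0.096), 59 chemokines, interleukins and receptors (median -0.02, ACKR3 -1.11 with adjusted p = 0.0524), 21 genes of the insulin-like growth factor axis (median 0.07, GRB10 0.74 with adjusted p = 0.0741), 18 clock genes (median -0.03, CRY1 -0.47), 71 ribosomal proteins (median 0.02, RPL24 0.17) or 36 genes of the cell cycle (median 0.03, AURKB 0.24). At dimmer probes SLA-3, a class I antigen, had 2 of 8 probes called (1.36 and 1.66, the others -0.02 to 0.90), and SLA-DQA1 had 1 called at -0.60. In the insulin-like growth factor axis GHR, the growth hormone receptor, had 1 of 7 probes called at -0.96, with a median of 0.03 over its probes that share no stretch with it, and GRB10 had 1 of 7 called at 0.61. SLA genes resemble each other and vary between pigs, and the part of this in the probe values was not tested. Without Large White pig 5 the median of the interferon-stimulated list was -0.14, and XAF1 (0.97), TRIM26 (-0.62) and GRB10 (0.57) were past the threshold, a description only, since this pig was singled out on interferon-stimulated genes and stood apart in GRB10.

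**Figure D3:**
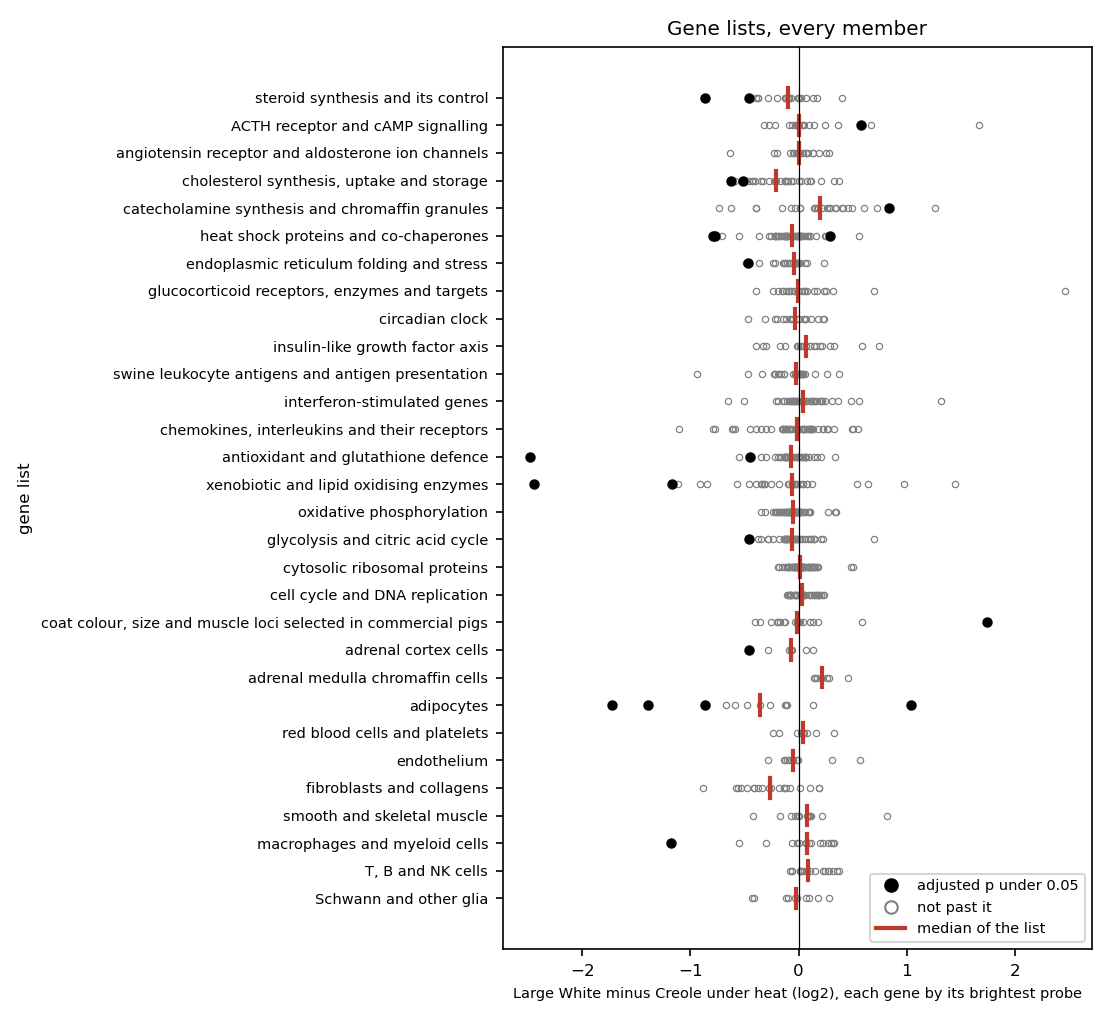
Each point is 1 gene of the list on the y axis, the x axis is its difference between Large White and Creole pigs under heat in log2 units, filled points passed the adjusted p of 0.05 and the red bar is the median of the list. Medians stay within 0.36 of 0 on this scale, the adipocyte list lies furthest to the left, and the medulla list has all 7 points on the right.

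The same breeds were compared at 24 °C, in 6 other Large White and 6 other Creole pigs, to see whether the differences belong to the heat. By the study's methods each litter was spread over both temperatures, so these pigs were littermates of the heat-stressed ones, and shared directions and calls do not come from unrelated animals. There 1453 probes were called (3.2% of those tested), 878 higher and 575 lower in Large White. Of the 630 probes called under heat, 623 (98.9%) had the same direction at 24 °C, where 65.9% of all probes had the same direction in both. Of them 289 were called in both, which is 45.9% of the heat calls and 19.9% of the calls at 24 °C. KIT differed by 1.64 at 24 °C, OAZ3 by 3.06, MGST2 by -2.41, USF1 by -1.59, ADIPOQ by -1.52, CRABP1 by -3.68, PDLIM3 by -3.09 and the single SELENOF probe by -4.50, each called there too. A test of the difference between the 2 differences, the interaction of breed and temperature over 24 pigs, called 0 probes (limma with Benjamini-Hochberg adjustment, lowest adjusted p = 0.0788). Of the 45348 probes, 1491 had an unadjusted p under 0.05 in limma, fewer than the 1 in 20 that chance gives.

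The lowest adjusted p of the interaction belonged to the MLKL probe and the unnamed probe with 1 other base. At 24 °C MLKL lay between 6.87 and 8.68 (median 8.30) in Large White and between 7.83 and 8.68 (median 8.34) in Creole pigs, a difference of -0.15, against -1.92 under heat. The heat-stressed Large White pigs, at 5.73 to 6.53, lay below every Large White pig at 24 °C, while the Creole pigs, at 7.86 to 8.13, lay within the range of those at 24 °C. The interaction was -1.77 at the MLKL probe and -1.92 at the unnamed probe with 1 other base (unadjusted p = 3.48e-06 and 2.22e-06, limma). Both passed without Large White pig 1 (adjusted p = 0.0485 and 0.042), and the adjusted p lay between 0.042 and 1.00 over the alternatives for the pair. The F1 pigs were low at 24 °C as well (6.27 to 7.24), and ranged from 5.46 to 8.85 under heat.

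Of the probes called under heat, 3 per direction with the smallest interaction p were looked at. These included a probe of BZW1, a regulator of translation, on the lower side, and an unnamed probe and a probe of GRIK2, a glutamate receptor, on the higher side. GRIK2 differed by 0.85 under heat (adjusted p = 0.0368) and by 0.11 at 24 °C (an interaction of 0.74). Its call under heat was lost in 12 of 24 alternatives. The BZW1 probe, 1 of 14, differed by -0.56 and -0.17, while the other 13 differed by -0.19 to 0.09 under heat. The unnamed probe A_72_P214557 differed by 0.47 and 0.18. CYP3A46 differed by -0.12 at 24 °C (an interaction of -1.05). None of these passed the interaction test.

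**Figure D4:**
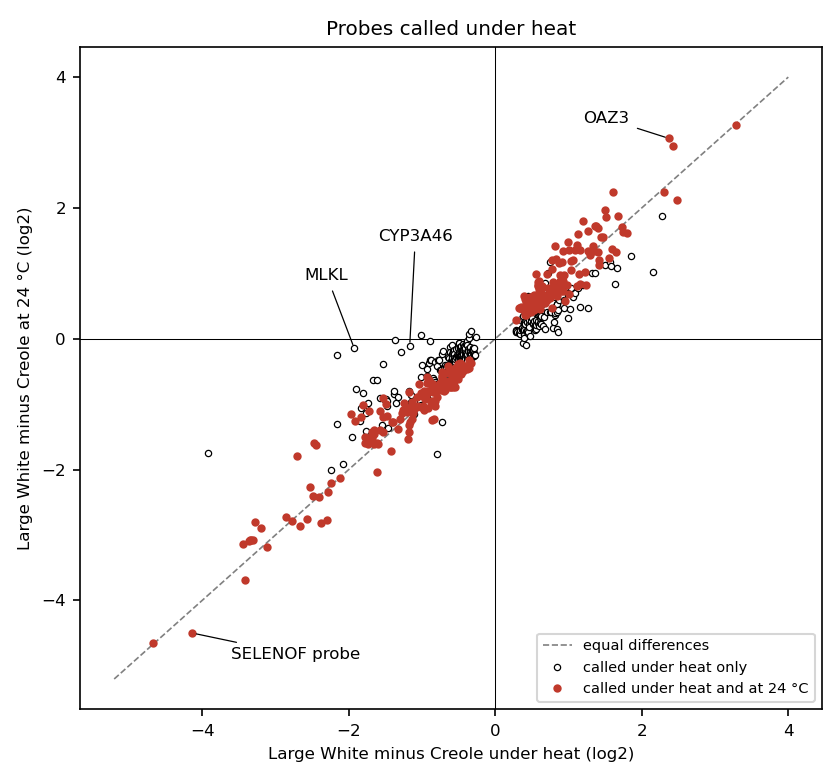
Each point is 1 of the 630 probes called under heat, the x axis is the difference between Large White and Creole pigs under heat and the y axis that at 24 °C, both in log2 units, filled where the probe was called at both temperatures, with a dashed line where both differences are equal. Most points follow the line, and MLKL and CYP3A46 lie near 0 on the y axis.

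The F1 pigs under heat lay between the 2 breeds by their mean at 579 of the 630 probes, 31 beyond Large White and 20 beyond Creole. The probes were chosen for breed means that lie apart, so the mean of another group tends to fall between them. The share over all probes was not computed, and these positions are a description only. Where 0 stands for the Creole and 1 for the Large White mean, the median position of the cross was 0.511 (quartiles 0.305 and 0.707). KIT lay between 10.69 and 11.52 in the F1 pigs, with the lowest at the level of the highest Creole pig (10.71) and the highest below every Large White pig. Other genes split the F1 pigs, as OAZ3 (7.80 to 10.66, median 8.21) and the SELENOF probe (6.40 to 11.66, median 11.46), which reached the levels of both breeds.

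**Figure D5:**
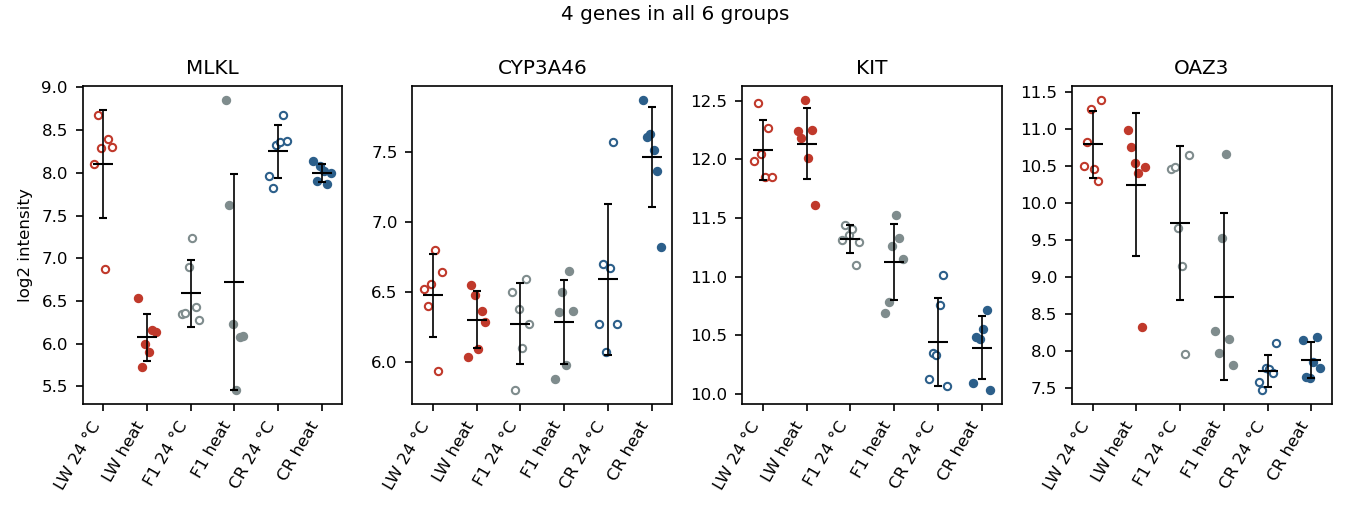
Each panel is a gene, each point a pig (filled under heat, open at 24 °C; red Large White, grey F1, blue Creole), the y axis is the log2 intensity and bars are the mean ± SD of 6 pigs. KIT orders the breeds alike at both temperatures, whereas MLKL lies at 5.73 to 6.53 in Large White under heat and at 6.87 to 8.68 at 24 °C, and OAZ3 is low in Large White pig 5.

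By chromosome, 27 of 679 genes of chromosome 4 (3.98%) and 22 of 474 of chromosome 9 (4.64%) had a called probe, against 211 of the 10412 genes with a place on Sscrofa11.1 (2.03%). The shares of chromosomes 15 and X were 3.7% and 3.5%, that of chromosome 1 was 1.36%, and chromosome Y had 1 of 4 genes. Only 4 stretches had 3 or more such genes that start within 1 Mb of the next. These were chr4:88591279-89401048 with ATF6, DUSP12 and USF1, chr4:96027746-96227030 with S100A14, S100A16 and S100A12, chr9:120327043-121112393 with CLEC20A, RALGPS2 and SOAT1, and chr12:51152568-52109987 with WSCD1, KIF1C and VMO1. They held 24, 9, 5 and 19 measured genes.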

How the data were processed

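RNA of whole adrenal glands was labelled with Cy3 and hybridised to a single-colour porcine array, 1 array per pig. Per the labels, the spots were extracted with Agilent Feature Extraction 10.10.1.1, and limma was among the tools. The deposited scanner files hold the raw intensity of each spot. For 45348 probes the authors deposited normalised log2 values, in the order of the median pixel intensity within each array (lowest Spearman's rho 1.00) after quantile normalisation. It has 93 missing cells and 0 columns of other samples. It was used as deposited. 32 probes had a missing value among the 12 arrays, none of them called, and were fitted on the arrays present.

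Large White and Creole HS pigs, 6 each, were fitted with limma 3.58.1 in R 4.3.3 (lmFit, eBayes, statmod 1.5.0) with no covariate, Benjamini-Hochberg adjustment over all probes and an FDR of 0.05. The same fit was made at 24 °C, and the interaction was fitted over 24 arrays. Pen, day of slaughter and parents were not used. Groups came from the titles of the arrays and replicate numbers only name pigs. Tests were tried on simulated data for this comparison: with 45348 probes, 52% of 100 probes moved by 0.5 and 90% of 100 moved by 1 were recovered, with 10 false calls. No probe was saturated, and the number of arrays limits the precision.

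Probes were named through accessions, gene names, gene numbers, older symbols or descriptions in the scanner files, matched to RefSeq and gene tables, and 21685 probes had no name. The genes named are the 10 largest differences in each direction whose brightest probe was called with no overlap, up to 5 per direction with at least 3 probes all called alike, those called both ways, up to 4 called members of each of 30 lists or else the member with the smallest p, and 3 called probes per direction with the smallest interaction p. Others were chosen after their values were seen. The comparison and the lists were chosen with earlier results of these data known. Alternatives were other normalisations (the 75th percentile, median centring, and normexp whose offset was 50), filters, the slide as a block, array weights, all 36 arrays, an FDR of 0.01 and each pig left out. Some genes that this rule names are not reported here.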

Additional observations from a re-analysis of the deposited data

Results flagged for a closer look

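In 126 checks, each of 1 probe within 1 group of 6 pigs, 8 had a pig far from the other 5, where chance gives about 6.3 (1 in 20). The same pigs recur from check to check. 3 of them were Large White pig 5, the pig with the lowest chromaffin markers. Its CHGB level was 17.07 (others 17.77 to 17.91), its GRB10 level 13.55 (others 12.44 to 12.62) and its OAZ3 level 8.31 (others 10.40 to 10.98). Creole pig 1 was low in PDLIM3 (9.47, others 13.08 to 13.90) and in GRB10 (11.41, others 11.94 to 12.16). Creole pig 6 was high in HSD3B1 (17.06, others 16.20 to 16.49), Creole pig 5 low in SUCLG2 (13.84, others 14.04 to 14.09) and Large White pig 3 low in HSPA4 (8.66, others 8.86 to 8.98). No cause was tested.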

How the results depend on the processing

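No called probe changed direction under any alternative run for the comparison under heat. Beside 260 probes higher and 370 lower, an FDR of 0.01 left 51 and 82, as a stricter threshold must, all 36 arrays in 1 fit gave 623 and 672, and array weights gave 457 higher. The cause of the last 2 shifts was not tested. Leaving out each pig moved the higher count between 141 and 470 and the lower count between 203 and 398. At 24 °C the 1453 calls became 723 when the slide was a fixed block. The interaction had 2 calls without Large White pig 1, the MLKL probe and the unnamed probe with 1 other base, and 0 in each other alternative. Of the 40 genes and 2 unnamed probes singled out and called, 24 genes and both probes stayed called at an FDR of 0.05 in each of their alternative fits, and 133 of 1005 values lost the call. RBM38, not called at its brightest probe (0.06), changed sign without Creole pig 2 (-0.0295) and lay between -0.0295 and 0.12 with each pig left out. The share of genes whose probes agree lay between 76.9% and 78.6%. The lists held 21 called genes, 19 by the mean of probes, 20 by scanner values and, in alternatives chosen after seeing the data, 27 without Large White pig 5, which was singled out on genes of these lists, and 18 when the slide was a fixed block. No paired analysis was made, since by the study's methods litters and pens each held a single breed. With 6 pigs per group many differences of 0.5 or less are missed.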

Other observations

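Among the 278 called probes without a gene name, the largest differences under heat were -4.68 at a probe for an alveolar macrophage mRNA, -3.92 at a probe the file leaves undescribed (-1.75 at 24 °C), and 3.29 at a probe described as similar to coiled-coil domain containing 17 (3.27 at 24 °C).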
